A study of Strongylocentrotus purpuratus with 2 samples.

Results

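Sp-Notch, Sp-delta and Sp-Hey encode a receptor, a ligand and a repressor of the Notch signalling pathway in the purple sea urchin, Strongylocentrotus purpuratus. They were taken by these exact names in the gene name column of both deposited tables, which gave 3 transcript models with a value among 12943, each standing on 1 row under 1 name. Whole embryos were injected as fertilized eggs with glycerol (the glycerol control) or with morpholino oligonucleotides against soxC. They were raised in artificial sea water at 15 °C and pooled at 30 hours, about 1000 embryos to a sample. No genotype or strain was labelled, and both groups were injected. RNA sequencing gave 1 library per group, with 4414503 reads recovered for the control and 4763994 for the library labelled SoxC morpholino, called the morpholino-labelled library below.

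A library from embryos given a control morpholino was not analysed here, so effects of targeting soxC and of any morpholino cannot be told apart. With 1 library in each group there is no replicate check and no test between conditions. What follows are differences between 2 libraries, and the exact 95% intervals in parentheses cover counting error only. The soxC transcript (Sp-SoxC) had 4016 reads in the control and 14959 in the morpholino-labelled library. Because a morpholino blocks translation or splicing without necessarily removing the transcript, the labels could not be checked from this value, and each direction below rests on them.

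Notch is a receptor in the cell membrane, and Delta is a ligand carried by a neighbouring cell. When they meet, an ADAM metalloprotease and then the gamma-secretase complex cut Notch, and the freed intracellular domain enters the nucleus and joins the DNA-binding protein Su(H), also called CSL. Genes of the Hes and Hey families, which encode basic helix-loop-helix repressors, are among the best-known targets in flies and vertebrates. In sea urchin embryos, Delta from the skeletogenic cells directs neighbouring cells towards pigment and other mesodermal fates. In neurogenic territories Delta and Notch limit how many cells become neural precursors, the cells in which soxC is also expressed.

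Transcripts of the 3 genes were all lower in the morpholino-labelled library, by very different amounts. Sp-Notch was 1.21-fold lower and Sp-delta 1.59-fold lower, while Sp-Hey had 13 reads in the control and none in the other library. These values are set against a general shift: 71.5% of the 8819 measured models had a log2 ratio below 0, and their median log2 ratio was -0.21. A model counted as measured when its mean level over both libraries was at least 1 CPM, its recovered reads scaled to the library total. Lower by itself was therefore the common outcome, and values relative to that median are given beside each ratio.

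Sp-Notch (WHL22.606237.0), the receptor gene, had a deposited signal of 5988.5 normalized units in the control and 4952.7 in the morpholino-labelled library. The reads behind them were 2262 (2170 to 2357) and 1947 (1861 to 2035), so the counting intervals of the 2 libraries did not overlap. The ratio was 0.827 (0.778 to 0.879), a log2 ratio of -0.27. An interval wholly below 1 was seen for 25.6% of measured models at the deposited scaling. With the median ratio of all models centred at 0 the ratio was 0.955 (0.898 to 1.02), and the interval then included 1. In all, 42.5% of measured models had a lower ratio than Sp-Notch. Of the 330 models with at least its mean level, 26.7% had a lower ratio.

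Sp-delta (WHL22.423696.0), the gene of the Notch ligand, had a signal of 1726.1 units in the control and 1083.6 in the morpholino-labelled library. These rest on 652 reads (603 to 704) and 426 reads (387 to 468), and the intervals lay well apart. The ratio was 0.628 (0.554 to 0.71), and relative to the median of all models it was 0.725 (0.64 to 0.82). An interval below 1 after that adjustment was found for 10.2% of all measured models. It was found for 22.3% of the 1215 models with at least the mean level of Sp-delta, where counting intervals are narrow. A lower ratio than that of Sp-delta occurred in 16.4% of all measured models, and in 2.39% of those 1215. RNA came from whole embryos, so fewer cells with delta transcripts and less transcript per cell cannot be told apart.

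Sp-Hey (WHL22.578435.1), named for a family of transcriptional repressors, had a signal of 34.4 units in the control against 0 in the morpholino-labelled library. The 13 control reads have a counting interval of 6.92 to 22.2 reads, and that of 0 reads ends at 3.69 reads. A set floor of 3 reads in the morpholino-labelled library is a signal of 7.63 units or 0.63 CPM. The intervals did not overlap, although the control level was only 2.94 CPM. Against the floor of 3 reads in the other library, Sp-Hey was 4.51-fold lower, and 3.91-fold lower relative to the median of all models. That floor leaves out the counting error of the control reads. With both errors included the interval reached down to 3.17-fold lower as deposited, and to 2.75-fold relative to the median. At this depth the transcript was not detected, which does not show that it was absent.

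**Figure D1:**
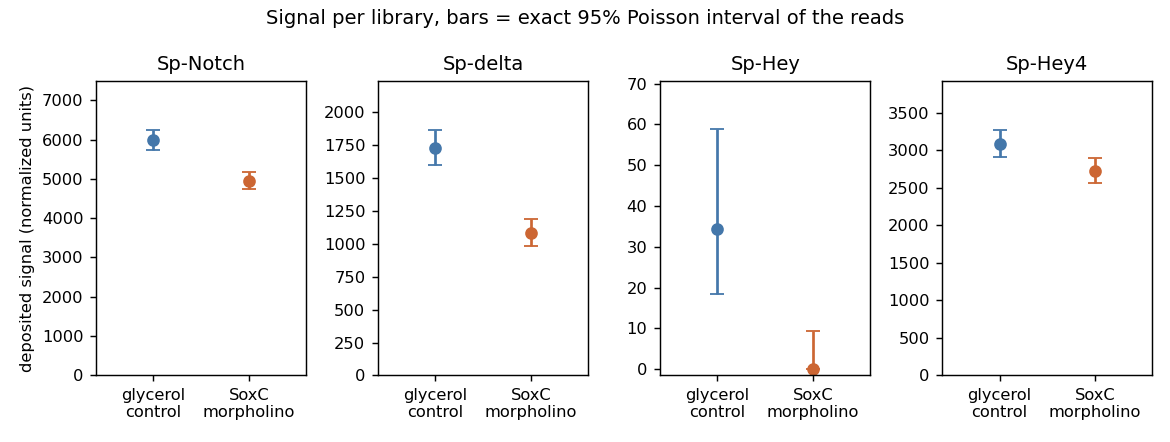
Deposited signal (normalized units, linear axis) of Sp-Notch, Sp-delta, Sp-Hey and its namesake Sp-Hey4 in the glycerol control (blue) and the morpholino-labelled library (orange). Points are the single library of each group and bars the exact 95% Poisson interval of its reads, which separates the libraries for Sp-Notch (5988.5 against 4952.7), Sp-delta (1726.1 against 1083.6) and Sp-Hey (34.4 against 0), and by a narrow margin for Sp-Hey4 (3086.9 against 2726.9).

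A size rule was used to set these values beside the other models. A model met it when it was measured, its ratio was at least 2-fold in either direction, and its counting interval excluded 1. Of the 3 genes, Sp-Hey met the rule as lower, and Sp-Notch and Sp-delta met it in neither direction. The background was 419 of 8819 measured models lower (4.75%) and 58 higher (0.658%). After centring on the median of all models, 210 were lower (2.38%) and 137 were higher (1.55%), and Sp-Hey was again among the lower ones. It was also among them when an exact binomial test on the reads, Benjamini-Hochberg adjusted and comparing the libraries alone, replaced the interval, which called 2.82% lower and 0.317% higher. Sp-Hey counted as measured only through its control reads, with a mean level of 1.47 CPM, so a gene with its control level could hardly pass with 0 reads and not differ. Under a floor of 5 CPM it was not measured. At a like control level, of 1003 models with 10 to 16 control reads, 8 had none in the morpholino-labelled library (0.798%), and no model with more control reads had none there. Sp-Hey, with 13 reads, had the third most control reads of these 8. In the opposite direction, 0 of 1007 models with 10 to 16 reads in the morpholino-labelled library had no control read. These counts describe 2 libraries and do not make up for the dependence of the call on the floor.

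**Figure D2:**
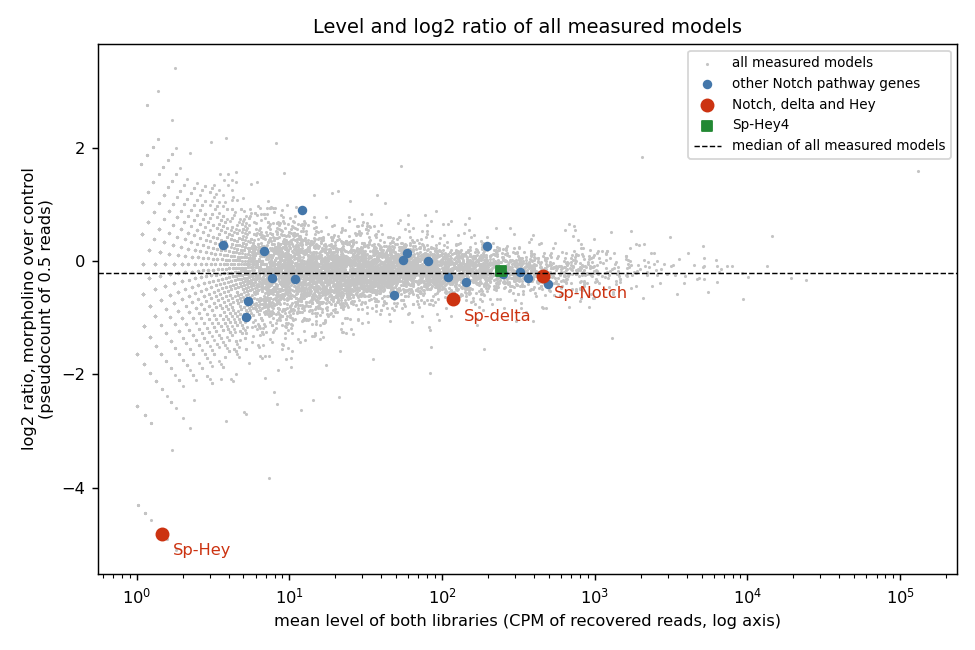
Log2 ratio between libraries, morpholino-labelled over glycerol control (pseudocount of 0.5 reads), against mean level (CPM, log axis) for the 8819 measured models (grey), with Sp-Notch, Sp-delta and Sp-Hey in red, other Notch pathway genes in blue and Sp-Hey4 as a green square. The dashed line is the median of all measured models at -0.21. Sp-Notch lies near it, and Sp-delta lies below it at -0.67. A lower ratio than that of Sp-delta occurred in 16.4% of all measured models and in 2.39% of the 1215 with at least its mean level. The position of Sp-Hey at the lower left depends on the pseudocount because 1 library has 0 reads.

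The proportion of 2 transcripts within a library does not depend on the scaling between libraries. For each 100 Sp-Notch reads there were 28.8 Sp-delta reads (26.4 to 31.5) in the control and 21.9 (19.7 to 24.3) in the morpholino-labelled library. Sp-delta was thus lower than Sp-Notch by a further ratio of 0.759 (0.661 to 0.872), and this interval excluded 1. For each 100 Sp-Notch reads there were 0.575 Sp-Hey reads (0.306 to 0.985) in the control against 0 (up to 0.19) in the other library. The upper end of the interval for the change of Sp-Hey against Sp-Notch was 0.382, and against Sp-delta it was 0.506. In the reads of these 2 libraries only the pair of Sp-delta and Sp-Notch can be set against counting error. The pairs with Sp-Hey rest on 13 control reads and 0 in the other library. Since Sp-Hey counted as measured only through its control reads, those pairs are no separate support for the order. These proportions are of reads, not of molecules, since the length of each model was not known, and no levels are ranked between genes.

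Sp-Hey did not hold most of the reads under a Hey name. Sp-Hey4 (WHL22.235105.0), a name outside the rule and added with its value known, had 1166 control reads and 1072 in the morpholino-labelled library. Its signal was 3086.9 and 2726.9 units, a ratio of 0.883 (0.812 to 0.961), and relative to the median of all models its ratio was 1.02 (0.938 to 1.11). Of the 1179 control reads under both Hey names, Sp-Hey held 1.1% (0.588% to 1.88%, exact Clopper-Pearson), and for 0 of the 1072 in the other library the same interval reached up to 0.344%. For each 100 Sp-Hey4 reads, Sp-Hey had 1.11 reads (0.592 to 1.91) in the control. The interval for the change in that proportion had an upper end of 0.358. This too rests on the 13 control reads through which Sp-Hey counted as measured. No difference between the 2 Hey-named models is therefore drawn from it. Whether reads of related Hey sequences were shared between the models is not given in the sources used here.

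The other genes of the pathway lay on both sides of the median of all models. The lists, ordered by role, held 46 entries including Sp-Notch, Sp-delta and Sp-Hey. No name matched 15 entries, 6 had a blank in both libraries, 4 were below 1 CPM and 21 were measured. Of these 21, 2 were lower by the size rule (Sp-Hey and Sp-Adam10), 0 were higher and 19 met neither, beside the background of 4.75% lower and 0.658% higher. The median log2 ratio of the 21 was -0.28, against -0.21 for all measured models. It was -0.26 over the 18 genes other than Sp-Notch, Sp-delta and Sp-Hey. Of these 18, 10 lay between the quartiles of all measured models (log2 ratios of -0.49 and 0.05), 3 lay below and 5 above, so their spread was near that of models at large.

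Among ligands, the only further measured entry of the lists was the model with most reads of those named Notch ligand, Sp-Notch ligand6. It had 248 control reads and 262 in the morpholino-labelled library, a ratio of 1.02 (0.85 to 1.21), and Sp-delta was lower against it by a ratio of 0.618 (0.497 to 0.769). Sp-Notch ligand1 was matched to the same entry but did not stand for it, having fewer reads, and was added with its value known. It had 86 and 51 reads, a ratio of 0.57 (0.395 to 0.815). Against Sp-Notch ligand1 the ratio for Sp-delta was 1.1 (0.753 to 1.63), an interval that included 1. Sp-delta was thus not lower than every model with a ligand name. None of the 4 genes of receptor glycosylation and maturation met the size rule, beside 4.75% lower and 0.658% higher of all measured models. Sp-Furin-1, named for the protease that cuts Notch during its maturation in vertebrates, had 808 and 1006 reads, a ratio of 1.2 (1.09 to 1.31). Sp-Ktelc1, named for the glucosyltransferase that modifies the EGF repeats of Notch, had 251 and 287 reads, a ratio of 1.1 (0.924 to 1.31). Sp-POFUT1, the Notch O-fucosyltransferase, had 365 and 377 reads, a ratio of 0.992 (0.857 to 1.15). Sp-Lfng, of the Fringe glycosyltransferases that tune the choice of ligand, had 30 and 19 reads and an interval from 0.324 to 1.12. Both Sp-Furin-1 and Sp-Ktelc1 had intervals above 1 relative to the median of all models, as did 12.4% of measured models.

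The cleavage step held the other lower call. Sp-Adam10, the metalloprotease that makes the first activating cut, had a signal of 82.1 units in the control and 40.7 in the morpholino-labelled library. From 31 and 16 reads it was 2.02-fold lower (1.07 to 3.95). It sat at the edge of the size rule, and relative to the median its ratio was 0.573 (0.293 to 1.08), which did not meet it. A second protease, the model named Sp-ADAM17-like 1 and Sp-ADAM17-like 2, had 535 and 457 reads and a ratio of 0.821 (0.723 to 0.932). Of the gamma-secretase subunits, Sp-PEN2 had 15 and 19 reads. Sp-Presenilin, with 2 and 1, and Sp-Nicastrin, with 0 and 1, were below 1 CPM, so nothing can be read from them.

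Genes acting on the ligand and receptor through ubiquitin and endocytosis went in both directions. Sp-Numb, named for an inhibitor of Notch in flies and vertebrates, had a signal of 100.6 units in the control and 188.2 in the morpholino-labelled library. Its ratio from 38 and 74 reads was 1.87 (1.25 to 2.84), short of 2-fold as deposited. Relative to the median of all models it was 2.16 (1.44 to 3.28), and it then met the size rule as higher. Sp-Mib1_1, a model named for the ubiquitin ligase Mind bomb that activates Delta, had 260 and 178 reads, a ratio of 0.658 (0.541 to 0.799). That model also carries the names Sp-Satb1 and Sp-Hypp_2193, so its reads cannot be given to Mind bomb alone. Sp-Neuralized, named for another ligase of Delta in flies, had a ratio of 0.851 (0.783 to 0.925) from 1208 and 1070 reads. Sp-Epn2, of the epsins that drive ligand endocytosis, had 0.868 (0.807 to 0.933) from 1565 and 1414 reads, close to the median of all models.

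In the nucleus, both measured members lay between the quartiles of all models. The model named suppressor of hairless, the DNA-binding partner of cleaved Notch, had 54 and 45 reads and a ratio of 0.801 (0.527 to 1.21). This model also carries the name Sp-Lct, so its reads cannot be given to suppressor of hairless alone. Sp-SNW1, a transcriptional coregulator, had a ratio of 0.809 (0.755 to 0.866) from 1808 and 1522 reads. Blanks in both libraries left Groucho and CtBP without a value.

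Of the listed hairy and Enhancer of split genes, the family to which Hey belongs, all 3 measured members had a log2 ratio below 0, as did 71.5% of measured models. They were Sp-Hey, measured only through its control reads, Sp-HesC and Sp-Hairy 2/4. Sp-Hey4, not in the list, was also below 0 but lay above the median of all models. Sp-HesC, known in sea urchin embryos for the repression of delta outside the skeletogenic lineage, had 2533 and 1989 reads. Its ratio was 0.754 (0.711 to 0.8), and 0.871 (0.821 to 0.924) relative to the median of all models. Sp-Hairy 2/4 had 721 and 578 reads, a ratio of 0.77 (0.689 to 0.861), and 0.889 (0.796 to 0.994) relative to the median. For both, the interval stayed below 1 after that adjustment, as it did for 10.2% of measured models, but neither reached 2-fold. Both had a mean level above that of Sp-delta, and such an interval was found for 22.3% of the 1215 models with at least that level. Sp-delta was also lower against Sp-HesC, at 25.7 reads per 100 Sp-HesC reads in the control against 21.4 in the other library. The change in that proportion was 0.832 (0.725 to 0.955).

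**Figure D3:**
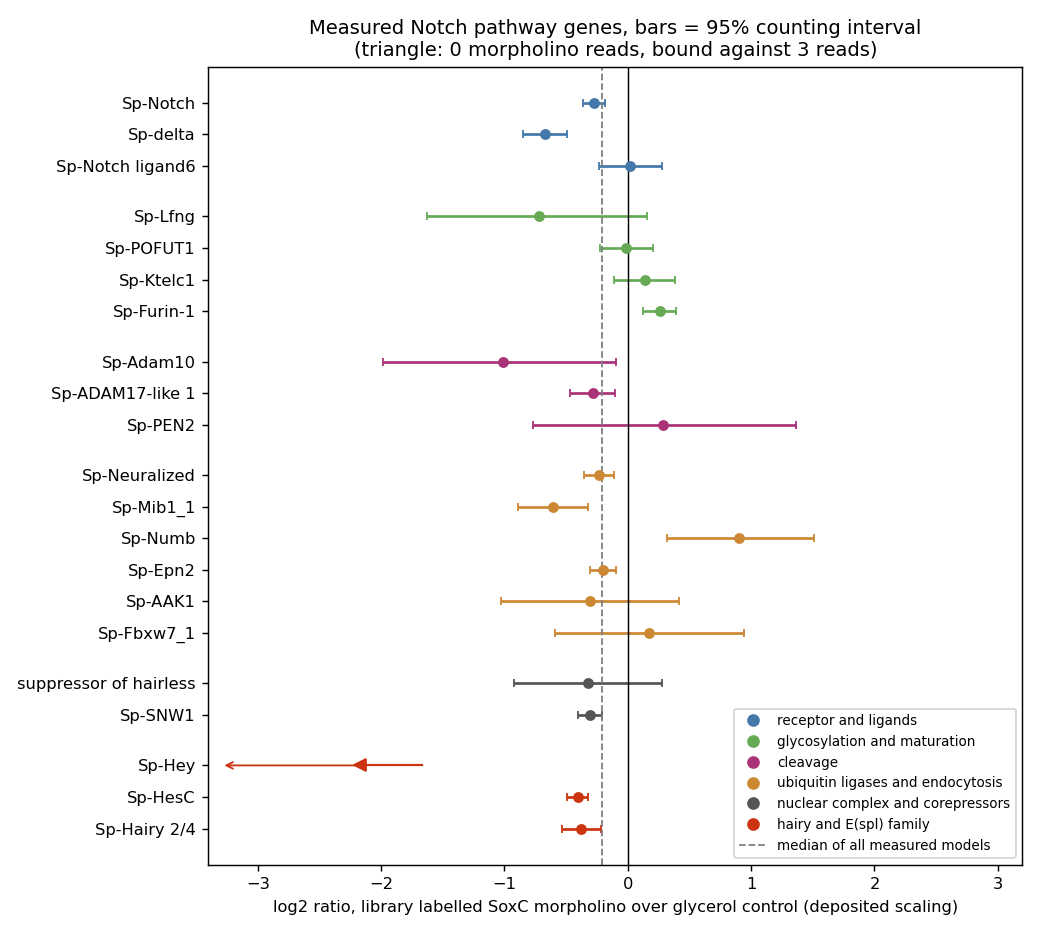
Log2 ratio (deposited scaling) of the 21 measured Notch pathway genes, coloured by role, with exact 95% counting intervals; the solid line is 0 and the dashed line the median of all measured models at -0.21. Genes lie on both sides of the dashed line. Sp-Adam10, Sp-Lfng, Sp-delta and Sp-Mib1_1 are among those to its left, and Sp-Numb, Sp-PEN2, Sp-Furin-1, Sp-Fbxw7_1 and Sp-Ktelc1 among those to its right. The triangle is Sp-Hey set against a floor of 3 reads, 4.51-fold lower. A line runs to the end of its interval at 3.17-fold, and an arrow marks the open side.

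Genes on a list headed mesoderm regulators that depend on Delta and Notch mostly lay above the median of all models. The list is broader than its heading. It holds Sp-Ployketide_synthase_like, named for an enzyme, and the dependence of its members on Delta and Notch was not tested. Of 16 entries 12 were measured, and 11 of these lay above the median of all models, with a list median log2 ratio of 0.14. None met the size rule as deposited, beside 4.75% lower and 0.658% higher of all measured models. After centring none met it either, beside 2.38% and 1.55%. For 12 genes, no calls is near those shares. Sp-gcm, the pigment cell regulator and a direct target of Notch signalling, had 2208 and 2861 reads, a ratio of 1.25 (1.18 to 1.32). Sp-Gatae, also named Sp-GataL, was the 1 below the median of all models, at 0.669 (0.606 to 0.738). For each 100 Sp-gcm reads there were 29.5 Sp-delta reads (27 to 32.2) in the control against 14.9 (13.4 to 16.5) in the morpholino-labelled library. This pair was chosen with its values known, and its proportion changed by a ratio of 0.504 (0.44 to 0.578).

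Among 16 neural regulators, 12 were measured, and 4 of these were lower by the size rule, beside 4.75% of all measured models. After centring 4 were lower, beside 2.38%. As deposited these were Sp-Brn1-2-4 (591 and 155 reads), Sp-IA-1 (240 and 75), Sp-Otp (63 and 11) and Sp-z167 (61 and 4), and Sp-SoxC was the 1 higher call, beside 0.658%. The list's median log2 ratio was -0.57. Its summed signal without soxC, most of it from Sp-Soxb1 and Sp-Soxb2, was 56994.4 units in the control and 47571 in the morpholino-labelled library. The part of neural cell number in the lower values of Sp-delta and Sp-Hey was not tested.

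Likeness over only 2 libraries says little, and is given by the distance between log2 signals. The gene-named models nearest to Sp-Notch were Sp-TlrP16 (distance 0.024) and Sp-Fermt3 (0.047). Those nearest to Sp-delta were Sp-LSM12-like (0.08) and Sp-Memo1 (0.097). Nearest to Sp-Hey were Sp-Mipep, with 14 control reads, and Sp-Trpc7, with 11, at distances of 0.1 and 0.23, both with 0 reads in the morpholino-labelled library.

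**Figure D4:**
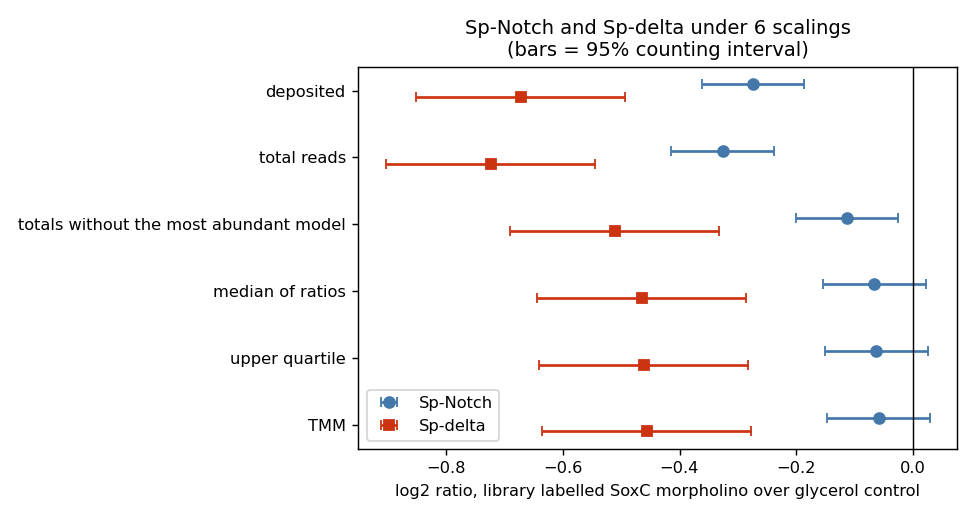
Log2 ratio of Sp-Notch (blue circles) and Sp-delta (red squares) under 6 scalings between the libraries, with 95% counting intervals. Sp-delta lies between -0.72 and -0.46 and to the left of 0 with its interval under each scaling shown; Sp-Notch lies between -0.33 and -0.06, and its interval includes 0 with the median of ratios, the upper quartile and TMM.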

How the data were processed

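The authors deposited a normalized signal for each transcript model. Per the submitters' processing notes, CASAVA 1.8 and Bowtie were used. How reads were counted, with or without strand, how they were scaled, and against which build, is not given in the sources used here. The same barcode and lane text stands in the headers of both libraries. A model on several rows (3006 of 12943) was used once, and 4326 models blank in both libraries were treated as missing. Deposited signals were whole multiples of 2.65 units in the control library and of 2.54 in the morpholino-labelled one, within 0.1 reads for 99.97% of models in each, which gave the reads.

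Log2 ratios used the deposited scaling and 0.5 reads as pseudocount, so the change of low models is understated; ratios and folds used none. Intervals are exact (Clopper-Pearson for ratios, Poisson for reads, conditional odds ratio for proportions). The floor for 0 was 3 reads per library. No molecular identifiers are recorded, so reads may not be independent. Groups came from sample titles. No count model was fitted, since 1 library per group leaves no residual spread; an exact binomial test on the reads, which compares libraries and not conditions, replaced it as an alternative. The code was tested on simulated Poisson counts. Changes were planted there only in models with higher levels than Sp-Hey, Sp-Adam10 and Sp-Numb, so calls at such levels were not tested.

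The genes and lists were chosen with earlier results of these data known. List entries were matched by exact name, with 23 further names matched by hand after values were seen, and the model with most reads stood for an entry. An entry of the planned lists is not reported here. Named were the 3 genes, list members meeting the size rule, up to 4 further members per role with the most signal, mesodermal and neural members meeting the rule, and the 2 nearest models; Sp-Hey4, Sp-Notch ligand1, Sp-gcm, Sp-Gatae, Sp-PEN2 and those below 1 CPM were added after their values were seen. No sequences are shown. Python 3.11.15, scipy 1.17.1, R 4.3.3 and edgeR 4.0.16 (TMM factors) were used.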

Additional observations from a re-analysis of the deposited data

How the results depend on the processing

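Sp-Hey was lower at every scaling and pseudocount tried. Its 13 control reads and 0 reads in the other library fixed that outcome, so these settings are no check of its direction. With 0.1 and 2 reads as pseudocount its log2 ratio ran from -7.09 to -2.96, and against 3 reads it was -2.17, an alternative chosen after seeing the data. Its call depends on few reads and was not available at a floor of 5 CPM. Sp-Notch moved from -0.27 to -0.066 with the median of ratios, -0.063 with the upper quartile, -0.058 with TMM and -0.11 with totals without the most abundant model. Sp-delta moved from -0.67 to -0.46, -0.46 and -0.46 with the first 3 of these. The pathway median moved from -0.28 to -0.077, -0.074 and -0.069 with the same 3. These scalings differ from the deposited one by a constant, so each model shifts alike.

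Pathway calls were 2 lower and 0 higher of 21 measured, beside 4.75% and 0.658% of all 8819 measured models. The pathway calls became 1 lower (Sp-Hey) and 1 higher (Sp-Numb) with the median of ratios, the upper quartile, TMM and totals without the most abundant model. With the median of ratios the shares over all measured models were 2.38% and 1.55%. A floor of 5 CPM left 1 lower (Sp-Adam10) of 19 measured, beside 157 of 5864 models. At 3-fold 1 was lower (Sp-Hey), beside 170 of 8819, and with the exact binomial test 1 was lower (Sp-Hey), beside 2.82%. At 1.5-fold 4 were lower (Sp-delta, Sp-Adam10, Sp-Mib1_1 and Sp-Hey) and 1 higher (Sp-Numb), beside 874 lower and 142 higher of 8819 models.

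Over all models, 58 higher and 419 lower became 137 and 210 with the median of ratios, 138 and 209 with the upper quartile, 138 and 208 with TMM, and 118 and 246 with totals without the most abundant model. They became 14 and 157 with a floor of 5 CPM, where 5864 models were measured instead of 8819. With 8819 measured, they were 142 and 874 at 1.5-fold, 27 and 170 at 3-fold, 186 and 760 by fold alone, and 28 and 249 with the exact binomial test. Which models these were was compared for the pathway genes alone. No paired analysis was possible because the groups hold 1 library each.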

Other observations

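Other models carry a Notch name in the deposited tables, chosen here for that name after values were seen. Besides Sp-Notch there were 36, of which 24 had a value and 18 were measured. Of the 18, 2 were lower by the size rule and 0 higher, beside 4.75% lower and 0.658% higher among all measured models. After centring on the median of all models, 1 was lower (Sp-Notch1_16) and 1 higher (Sp-Notch1-6), beside 2.38% and 1.55%. In all, 12 lay above the median of all models. The model with most reads was Sp-Notch1b, with 5761 in the control against 4952 in the morpholino-labelled library, a ratio of 0.826 (0.795 to 0.858), beside 0.827 for Sp-Notch. For Sp-Notch1-21, 1695 and 1715 reads gave a ratio of 0.972 (0.909 to 1.04). The called models had few reads: Sp-NotchL_9 had 31 and 14, Sp-Notch1_16 had 16 and 4, and Sp-Notch1-6 had 9 and 20. Such names often follow EGF repeats that many proteins share, so they do not show that these models encode receptors, and reads may be divided among similar sequences.

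Of 6 models named Notch ligand, 3 were measured and none met the size rule, beside 4.75% lower and 0.658% higher of all measured models. Besides Sp-Notch ligand6 and Sp-Notch ligand1, given above, the third was the better covered of the 2 models named Sp-Notch ligand5. It had 154 and 188 reads, a ratio of 1.17 (0.943 to 1.46).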
